A study of Mus musculus with 24 samples.

Results

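Nlrp9a, Nlrp9b, Nlrp9c, Nlrp14, Nlrp4a, Nlrp4b and Nlrp4e are NLRP genes of the mouse egg that lie outside the subcortical maternal complex, the protein assembly of the egg cortex that holds NLRP5, NLRP2 and NLRP4F. They were chosen by name, and each symbol had 1 of the 25965 entries of the deposited gene table. All 7 passed the filter for testing, a mean over the oocytes of 1 RPM or more (RPM, reads per 1000000 sequenced reads). RNA was amplified from single oocytes that adult females had ovulated naturally, freed of cumulus cells and zona. The transgenic mice (Thy1.2-AMHTg/0) carry AMH, anti-Müllerian hormone, under the Thy1.2 promoter, and the controls were wild-type (Thy1.2-AMH0/0). AMH is a hormone of growing follicles that restrains follicle recruitment, and the study asked whether its overexpression alters the oocyte's transcripts. Values of 10 oocytes from 4 transgenic females and 11 oocytes from 4 wild-type females were analysed, together with 1 kit control RNA that is not from oocytes. A transgenic and a wild-type female shared each of the 4 sequencing lanes, and females are named here by genotype and lane. There were 3 oocytes per female, except 2 in the transgenic females of lanes 1 and 4 and in the wild-type female of lane 4. A further oocyte of the transgenic female of lane 1 and a water-only library are not analysed here.

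NLRP proteins pair an N-terminal pyrin domain with a nucleotide-binding NACHT domain and leucine-rich repeats. In immune cells several of them assemble inflammasomes with the adaptor PYCARD and caspase-1, whereas a mammalian reproductive branch of the family is transcribed in oocytes and supplies maternal proteins to the early embryo. The Nlrp4 and Nlrp9 genes have multiplied in rodents. NLRP14 is a maternal protein needed for early embryo development and reported to bind UHRF1, and NLRP9B is known in gut epithelium as an inflammasome sensor of viral RNA that works with DHX9.

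All 7 genes were detected in every oocyte, and none differed between the genotypes beyond the spread of the females. Together they took 0.314% to 0.789% of a library (median 0.501%). Oocyte library totals ran from 20441000 to 33341000 reads (median 22486000), so that 3 reads stood for 0.0900 to 0.147 RPM. The lowest value of any of the 7 in any oocyte was 31.6 RPM, for Nlrp4e. The control RNA had 56 reads of the 7 genes, 2.54 RPM in sum. Of these 26 were Nlrp14, 9 Nlrp9a, 8 Nlrp4a, 7 Nlrp4b, 5 Nlrp9c and 1 Nlrp9b, and Nlrp4e had 0 reads, which allows up to 3 reads or 0.136 RPM in that library. The 10 oocyte markers, Gdf9, Bmp15, the zona genes and others, were all at 1 RPM or more and summed to 23688 to 38587 RPM per oocyte, against 20.1 RPM in the control RNA. None of 16 cumulus and granulosa markers reached a mean of 1 RPM. Their sum was 0 to 3.29 RPM in transgenic and 0.147 to 33.5 RPM in wild-type oocytes, with the granulosa marker Foxl2 at 0 reads in all 21. Of 12 blood and immune markers 8 were at 0 reads in every oocyte, and the sum of the list was at most 7.00 RPM. Amh itself had reads in 1 of 21 oocytes, so the genotype labels could not be checked from it.

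All 7 genes lie on chromosome 7 (coordinates of GRCm38, from the deposited table). Nlrp9c (26322473 to 26403700, minus strand), Nlrp4a (26435113 to 26476142, plus strand) and Nlrp9a (26535023 to 26575615, plus strand) are direct neighbours, 31412 and 58880 bases apart, with no other gene of the table between them. Nlrp4b (10687793 to 10730168), Nlrp9b (20008023 to 20073306), Nlrp4e (23301275 to 23362270) and Nlrp14 (107166990 to 107198102), all on the plus strand, stand apart from this cluster. In the GENCODE M21 annotation the exons of Nlrp9b share 136 bases with a processed pseudogene on the same strand, Gm18877, which is not analysed here. No exon of the other 6 genes overlapped another gene's exon.

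RefSeq promoter windows (GRCm38.p6, 250 bases before to 50 after the start) matched 6 of the 7 genes, with 8 windows in all. The sequences upstream of Nlrp9c and Nlrp9a are shown because they are near-identical over part of their length, 167 of 172 aligned bases (97.1%), although the genes face opposite ways on either side of Nlrp4a. Those of Nlrp4b and of the second RefSeq start of Nlrp4a are shown because they aligned over 227 bases at 80.6% identity although the genes lie far apart on the chromosome. Capitals mark the CCAAT box, on either strand (CCAAT or ATTGG), a word chosen after the sequences had been seen. The 4 stretches end at or shortly before the start site, and each is written 5′ to 3′ on the strand of its gene.
Nlrp9c, chr7:26403701-26403950, minus strand: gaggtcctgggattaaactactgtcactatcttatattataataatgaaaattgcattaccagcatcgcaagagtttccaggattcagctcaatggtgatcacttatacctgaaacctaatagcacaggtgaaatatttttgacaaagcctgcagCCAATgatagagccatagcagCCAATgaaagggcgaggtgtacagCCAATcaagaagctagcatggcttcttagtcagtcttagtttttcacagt
Nlrp9a, chr7:26534773-26535022, plus strand: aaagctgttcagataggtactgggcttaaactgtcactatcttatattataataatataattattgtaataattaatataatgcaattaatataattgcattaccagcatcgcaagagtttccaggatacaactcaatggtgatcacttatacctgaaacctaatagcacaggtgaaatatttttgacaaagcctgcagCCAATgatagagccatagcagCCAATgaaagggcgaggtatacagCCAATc
Nlrp4b, chr7:10687543-10687788, plus strand: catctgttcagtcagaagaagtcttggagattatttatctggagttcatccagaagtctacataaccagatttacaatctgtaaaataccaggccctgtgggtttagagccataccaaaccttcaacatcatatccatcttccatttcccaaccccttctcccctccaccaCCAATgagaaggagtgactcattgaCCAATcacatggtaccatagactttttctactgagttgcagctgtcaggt
Nlrp4a, chr7:26435364-26435613, plus strand: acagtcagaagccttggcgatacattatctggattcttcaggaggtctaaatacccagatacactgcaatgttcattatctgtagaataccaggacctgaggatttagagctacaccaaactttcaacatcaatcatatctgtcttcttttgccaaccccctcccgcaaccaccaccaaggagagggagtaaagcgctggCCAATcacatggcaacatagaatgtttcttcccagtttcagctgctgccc
Nlrp9c and Nlrp9a each hold 3 closely spaced CCAAT boxes, Nlrp4b holds 2, and Nlrp4a holds 1 before its second RefSeq start. The boxes of Nlrp9c and Nlrp9a lie in the stretch that is near-identical between them, so they are not independent matches. At least 3 CCAAT matches were found in 3.37% of all 32851 RefSeq windows of 300 bases, and at least 1 in 37.4%. Nlrp4e had 1 match, and Nlrp9b and the window of the first RefSeq start of Nlrp4a had none.

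Other words were searched on both strands of the whole 300-base windows, with a match to 1 word allowed to overlap a match to another. The E-box CANNTG, the word read by basic helix-loop-helix factors such as FIGLA, was present in all 8 windows of the 6 genes and in 72.3% of all windows. The NOBOX element TAATTG had 2 matches in Nlrp9a and 1 in Nlrp9b, against 8% of all windows with at least 1. TATAAA had 1 match, in Nlrp9b, against 13.6% of all windows. These are matches of letters and were not tested as binding sites.

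Likeness between the transcripts bears on how far reads can be assigned to 1 gene, since no source used here says how reads with several matches were treated. Among the longest M21 transcripts, Nlrp9a and Nlrp9c were 88.7% identical over 3202 aligned bases, Nlrp9a and Nlrp9b 85.4%, and Nlrp9b and Nlrp9c 85.3%. Nlrp4a and Nlrp4e were 86.2% identical over 3305 bases, Nlrp4a and Nlrp4b 80.6%, and Nlrp4b and Nlrp4e 80.2% over 2172 bases. Exact identity came in short runs, at most 129 bases between Nlrp9 transcripts and 64 bases between Nlrp4 transcripts. Of the distinct 50-base words in its transcripts, Nlrp4e shared 36.7% with another annotated gene, whereas the share was 7.79% for Nlrp9b, 6.07% for Nlrp9a, 2.63% for Nlrp4a, 2.61% for Nlrp9c and 0% for Nlrp14 and Nlrp4b. The 4 genes that shared most 50-base words with Nlrp4e were Gm16443 (30.8%), Gm8486 (30.3%), Gm8685 (29.9%) and Gm8728 (29.7%). Partners below these were not listed. Words of 100 bases were shared by 11.5% in Nlrp4e, 2.11% in Nlrp9b, 0.820% in Nlrp9a and 0.229% in Nlrp9c, and by none in the other 3. The values of Nlrp4e, and to a lesser degree those of the Nlrp9 genes and Nlrp4a, are therefore less certain than those of Nlrp14 and Nlrp4b.

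**Figure D1:**
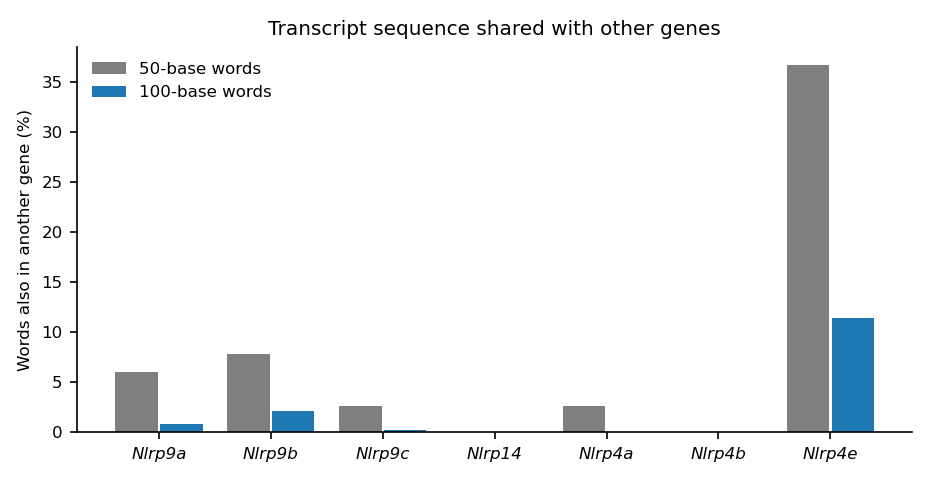
Share of the distinct 50-base and 100-base words of each gene's M21 transcripts that also occur in a transcript of another gene (percent, bars from 0). Nlrp4e stands out with 36.7% and 11.5%, and Nlrp14 and Nlrp4b have none.

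Levels differed widely among the 7 genes. Levels between genes are given per kilobase of the union of the gene's M21 exons, as RPM per kb, mean ± SD over the 8 females. Nlrp14 was highest at 532 ± 135, the 74th highest of 10874 tested genes with a length. It was followed by Nlrp4a at 210 ± 23.3, Nlrp9c at 175 ± 23.6, Nlrp9a at 142 ± 19.1, Nlrp4b at 125 ± 13.7 and Nlrp9b at 77.4 ± 19.3 RPM per kb. Nlrp4e was lowest at 19.7 ± 3.65 RPM per kb, the 2081st in rank. In this order Nlrp14 lay above Nlrp4a in all 21 oocytes, and Nlrp9b above Nlrp4e in all 21, with no overlap of the females' values. The ranges of the other neighbours in the order overlapped, and Nlrp4a lay above Nlrp9c in 7 of 8 females only. The length chosen matters for these middle genes. Per kilobase of the longest transcript the order was Nlrp14, Nlrp9c, Nlrp4a, Nlrp4b, Nlrp9a, Nlrp9b and Nlrp4e, and the ranges of Nlrp14 and Nlrp9c then overlapped, though Nlrp14 was above Nlrp9c in 21 of 21 oocytes.

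The 7 genes were set beside other NLR genes on the same scale, RPM per kb of exon union. Of the NLRP genes of the subcortical maternal complex, Nlrp4f reached 296 RPM per kb, between Nlrp14 and Nlrp4a, while Nlrp5 (Mater), a maternal-effect gene, was at 37.2 and Nlrp2 at 17.8 RPM per kb, close to Nlrp4e. Of the remaining reproductive NLRP genes, Nlrp4g was at 8.69 and Nlrp4c at 3.77 RPM per kb, and Nlrp4d had 0 reads in all 21 oocytes. The 17 NLR genes of innate immunity were nearly silent. Only 3 of them reached a mean of 1 RPM, and 6 had 0 reads in every oocyte, among them Nlrx1 with 287 reads in the control RNA. The exception was Nlrc4, partner of the NAIP flagellin receptors, at 74.8 RPM (15.3 RPM per kb) with reads in all 21 oocytes, followed by Naip1 at 5.20 and Nod2 at 2.14 RPM (means over the 21 oocytes). 3 reads of the control RNA fell in Nlrc4.

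**Figure D2:**
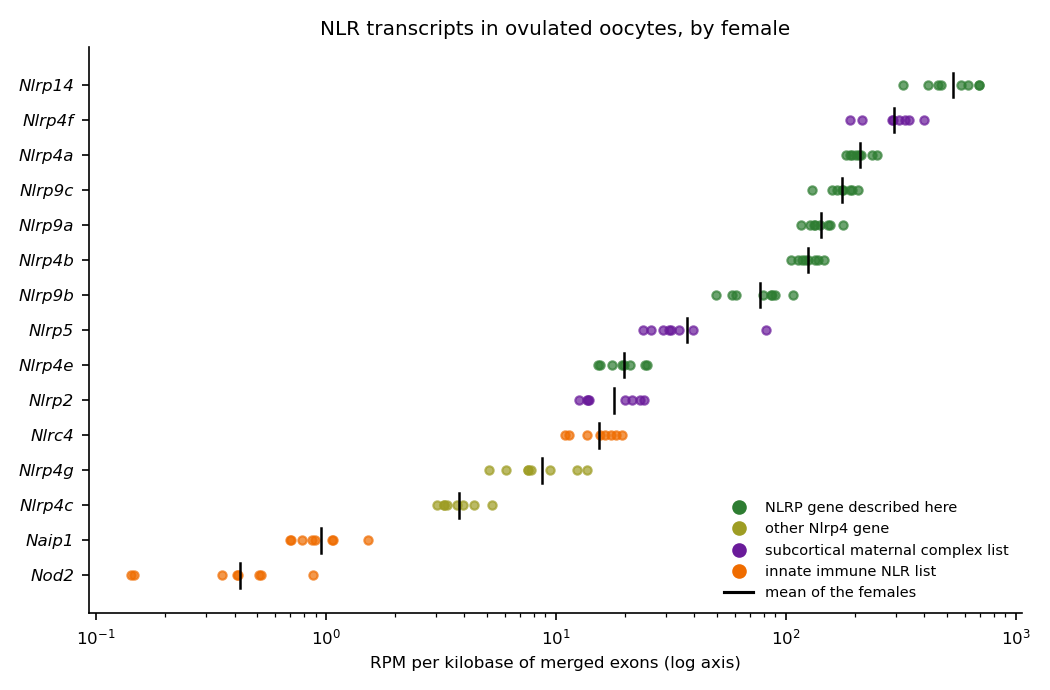
RPM per kb of exon union in each of the 8 females (points, log axis) for the 7 genes and for other NLR genes whose mean reached 0.1 RPM per kb. Nlrp14 lies highest at 324 to 693 RPM per kb, and of the innate immune NLR genes Nlrc4 alone lies in the range of Nlrp4e.

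The genes that would make an inflammasome were largely missing. Of 9 inflammasome partners and products, the adaptor Pycard, Casp4, the pore former Gsdmd and Il1b had 0 reads in all 21 oocytes, and Casp1 and Il18 stayed under a mean of 1 RPM. Txnip (1023 RPM), the kinase gene Nek7 (40.6 RPM) and Casp8 (33.4 RPM) were present. Of 5 genes whose proteins were reported to bind or work with NLRP9B or NLRP14, Uhrf1, a reader of hemimethylated DNA, was at 192 RPM, Hspa8 at 28.5, Tbk1 at 28.1 and the helicase gene Dhx9 at 4.05 RPM. Slc8b1, a mitochondrial sodium-calcium exchanger, had 0 reads in all 21 oocytes and 177 reads in the control RNA. Of 7 listed transcription factors, not all particular to oocytes, Gtf2b (620 RPM), Nobox (108 RPM), Lhx8 (54.7 RPM), Taf4b (24.6 RPM) and Sohlh2 (17.6 RPM) were well above 1 RPM, Figla was at 1.35 RPM, and Sohlh1 had reads in 1 oocyte. In the control RNA Gtf2b had 812 reads, Taf4b 170, Lhx8 44 and Sohlh1 1, and Nobox, Figla and Sohlh2 had 0.

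For the genotypes, the oocytes of each female were averaged, so that n = 4 females in each group, and limma was fitted to log2(RPM + 1) of all 10987 tested entries. None of the 7 genes passed an adjusted p of 0.05, with or without the lane as a block, where 0% of all entries did in both fits. At an unadjusted p of 0.05 the count was also 0 of 7, against 6.81% of all entries. The log2 difference, transgenic minus wild-type, was above 0 for 3 genes and below 0 for 4, with a median of -0.0018 against -0.014 over all tested entries, of which 47.8% were above 0, and with libraries scaled to equal medians or by TMM factors Nlrp9a and Nlrp4e were above 0 as well. For all 7 genes the female values of the groups overlapped, whereas they did not overlap in 4.31% of entries. RPM is a share of the library, so more transcript of a gene and less of the oocyte's other RNA cannot be told apart.

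Nlrp9a averaged 490, 617, 462 and 444 RPM in the transgenic females of lanes 1 to 4 and 404, 467, 532 and 539 RPM in the wild-type females. The values of the groups overlapped, and the transgenic female was higher in lanes 1 and 2 and lower in lanes 3 and 4. The group means were 503 ± 78.3 and 486 ± 63.2 RPM (SD, n = 4 each), with a limma log2 difference of -0.0018 (SE 0.152, 95% confidence interval -0.329 to 0.326, adjusted p = 0.999). Single oocytes ran from 288 to 738 RPM (median 448) in transgenic and from 353 to 620 RPM (median 517) in wild-type animals.

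Nlrp9b, the inflammasome sensor of gut epithelium, averaged 218, 334, 324 and 227 RPM in the transgenic females and 297, 322, 399 and 186 RPM in the wild-type females. Both females of lane 4 and the transgenic female of lane 1 were low, and the highest and the lowest female were both wild-type. The means were 276 ± 61.7 and 301 ± 88.3 RPM, with a log2 difference of -0.13 (SE 0.235, interval -0.641 to 0.376, adjusted p = 0.904 by limma). Its single oocytes ran from 113 to 370 RPM (median 310) and from 169 to 447 RPM (median 341).

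Nlrp9c averaged 772, 1217, 1043 and 988 RPM in the transgenic females and 1047, 938, 1131 and 1155 RPM in the wild-type females. The transgenic group held both the lowest and the highest female, and the transgenic female was higher in lane 2 alone. The means were 1005 ± 184 and 1068 ± 98.0 RPM, with a log2 difference of -0.14 (SE 0.166, interval -0.498 to 0.218, adjusted p = 0.863 by limma), which was 0.031 without oocyte C of the transgenic female of lane 1, and that of Nlrp9b was then 0.055. Single oocytes ran from 431 to 1412 RPM (median 1039) and from 832 to 1293 RPM (median 1056).

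Within the Nlrp9 trio the proportions per kilobase of exon union were alike in both groups. Nlrp9c made up 43.7% of the summed RPM per kb in transgenic and 45.2% in wild-type females, with SDs of at most 3.37. Nlrp9a made up 37.3% ± 4.45 and 34.8% ± 3.08, and Nlrp9b 19.0% ± 2.42 and 20.0% ± 5.14 (SD, n = 4 each). Over single oocytes the share of Nlrp9b ran from 11.4% to 27.4%. The lowest female was the wild-type female of lane 4, at 12.5%. The sizes of these shares depend on the length chosen. The exon union of Nlrp9c is 5935 bases and its longest transcript 3216 bases. Per kilobase of the longest transcript the means over the females were 322 RPM for Nlrp9c, 148 for Nlrp9a and 86.2 for Nlrp9b, a larger share for Nlrp9c.

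Nlrp14, the maternal UHRF1 partner, averaged 2192, 2447, 2046 and 1627 RPM in the transgenic females and 1148, 1670, 1468 and 2450 RPM in the wild-type females. The transgenic female was higher in lanes 1 to 3, by log2 differences of 0.74, 0.61 and 0.41, and lower in lane 4, by -0.59, where the wild-type female held the highest value of all 8. The means were 2078 ± 343 and 1684 ± 554 RPM, with a log2 difference of 0.29 (SE 0.205, interval -0.151 to 0.735, adjusted p = 0.786 by limma). When that wild-type female of lane 4 was left out, the difference was 0.50 (adjusted p = 0.373 by limma), whereas leaving out the wild-type female of lane 1 gave 0.13, and leaving out oocyte B of the transgenic female of lane 1 gave 0.094. Over single oocytes the range was 1094 to 3365 RPM (median 1777) and 860 to 2499 RPM (median 1462).

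Nlrp4a averaged 1011, 1210, 1145 and 978 RPM in the transgenic females and 942, 922, 1031 and 881 RPM in the wild-type females. It was the only one of the 7 genes with the transgenic female higher in all 4 lanes, by log2 differences of 0.074 to 0.40, as in 7.97% of all entries, and none of the 7 was lower in all 4, as in 10.3% of entries. Yet the values of the groups overlapped. The means were 1086 ± 110 and 944 ± 63.6 RPM, with a log2 difference of 0.19 (SE 0.125, interval -0.0821 to 0.46, adjusted p = 0.766 by limma). An exact permutation test of the female means gave p = 0.0857, two-sided, where 70 arrangements cannot give less than 0.029. The test was run on all 7 genes, and this was the smallest p, not adjusted for their number. Over single oocytes the range was 800 to 1446 RPM (median 1032) and 808 to 1173 RPM (median 931).

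Nlrp4b averaged 599, 618, 543 and 559 RPM in the transgenic females and 474, 505, 527 and 660 RPM in the wild-type females. The transgenic values lay inside the wild-type range. The means were 580 ± 34.7 and 542 ± 81.9 RPM, with a log2 difference of 0.051 (SE 0.137, interval -0.245 to 0.347, adjusted p = 0.940 by limma), which was -0.084 without oocyte B of the transgenic female of lane 1. Single oocytes ran from 363 to 868 RPM (median 559) and from 415 to 750 RPM (median 502).

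Nlrp4e, the gene with most words shared with other genes, averaged 52.6, 71.6, 84.8 and 59.8 RPM in the transgenic females and 65.9, 67.4, 82.7 and 51.8 RPM in the wild-type females. In both groups the female of lane 3 was highest. The means were 67.2 ± 14.1 and 67.0 ± 12.6 RPM, with a log2 difference of -0.019 (SE 0.194, interval -0.438 to 0.400, adjusted p = 0.987 by limma). Single oocytes ran from 31.6 to 111 RPM (median 67.5) and from 49.0 to 98.1 RPM (median 65.2).

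**Figure D3:**
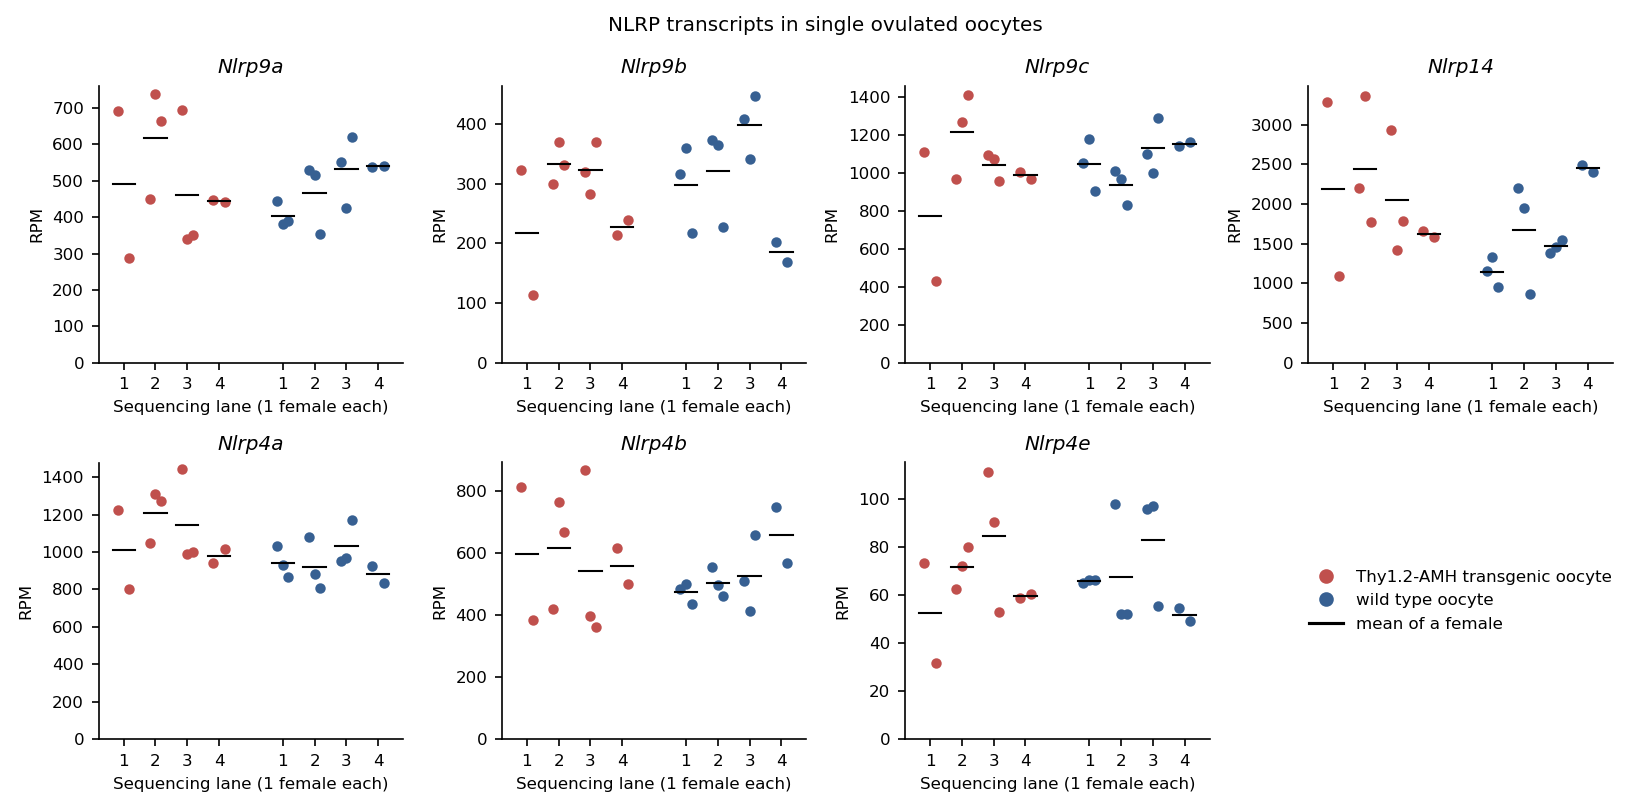
RPM of each of the 7 genes in all 21 oocytes, grouped by female (genotype and lane), with the mean of each female as a bar mark. The values of the genotypes overlap for every gene, and the pair of oocytes of the transgenic female of lane 1 lies far apart for most genes.

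**Figure D4:**
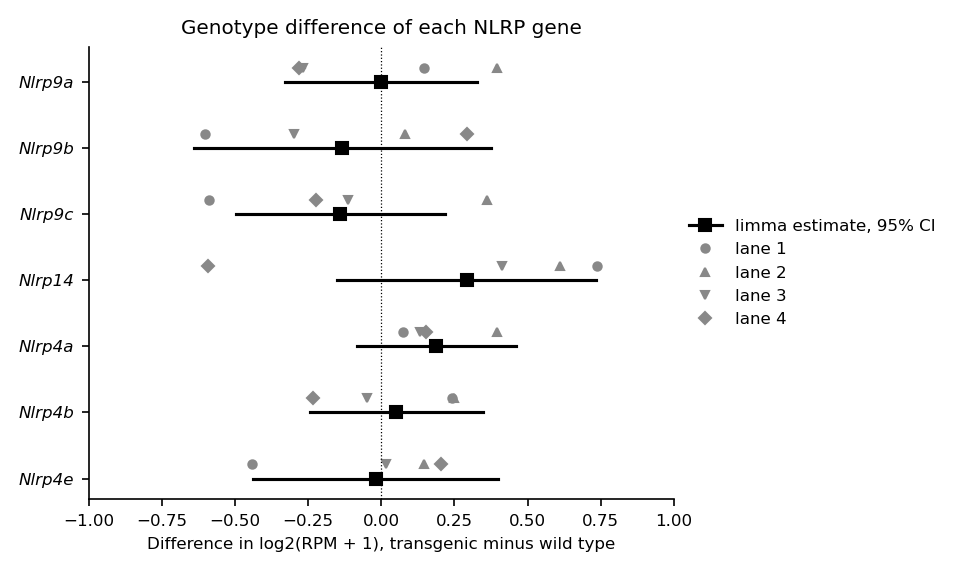
Log2 difference, transgenic minus wild-type, of the 7 genes from limma on female means of log2(RPM + 1), with 95% confidence intervals and the difference within each of the 4 lanes as points. All intervals include 0, and the lane differences take both signs except for Nlrp4a.

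The lists around these genes gave no call either. Of the 8 genes of the subcortical maternal complex 0 passed the adjusted test, with 4 differences above and 4 below 0. The same count of 0 held for 2 tested genes of the further reproductive NLRP list (Nlrp4c and Nlrp4g), 3 innate immune NLR genes, 3 inflammasome genes, 4 reported partners and 6 transcription factors, and none of these had an unadjusted p under 0.05 by limma. The median log2 difference of these lists ran from 0.0021 for the transcription factors to 0.21 for the further NLRP genes, and all were above the -0.014 of all entries.

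The spread between sister oocytes was set beside that of genes of like level, as a description with no test. The SD of log2(RPM + 1) between oocytes of 1 female, pooled over the 8 females, was 0.52 for Nlrp14, 0.42 for Nlrp4b and Nlrp4e, 0.41 for Nlrp9a, 0.39 for Nlrp9b, 0.32 for Nlrp9c and 0.22 for Nlrp4a. Among tested genes within a factor of 2 of the same mean RPM, the median SD was 0.21 for the peers of Nlrp9c, 0.22 for those of Nlrp14, Nlrp4a and Nlrp4b, 0.23 for those of Nlrp9a, 0.24 for those of Nlrp9b and 0.30 for those of Nlrp4e. Nlrp4b exceeded 96.4%, Nlrp14 95.1%, Nlrp9a 94.7%, Nlrp9b 91.4%, Nlrp4e 85.1% and Nlrp9c 81.4% of its peers. Nlrp4a, above 55.0% of its peers, was near their median. The SD between female means within a genotype was lower than that between sisters for all but Nlrp9b (0.43 against 0.39). The lowest was 0.12 for Nlrp4a. A female mean is taken over her oocytes, and averaging alone lowers an SD relative to that of single oocytes. A lower value therefore does not show that females differed less than sisters.

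In the transgenic female of lane 1 oocyte B exceeded oocyte C 3.01-fold in Nlrp14, 2.85-fold in Nlrp9b, 2.58-fold in Nlrp9c, 2.40-fold in Nlrp9a, 2.32-fold in Nlrp4e, 2.12-fold in Nlrp4b and 1.53-fold in Nlrp4a. Oocyte C was the lowest of all 21 oocytes for 5 of the 7 genes, all but Nlrp14 and Nlrp4b. It was also the deepest library (33341000 reads), and its median Pearson's r with the other oocyte libraries, 0.921, was the lowest of the 21, against 0.957 for the highest. Its 10 oocyte markers summed to 27378 RPM against 33787 RPM in its sister, with 9 of the 10 lower in oocyte C and H1foo higher, at 9280 against 8882 RPM. Its cumulus markers summed to 0.660 RPM. The part of depth or library quality in the low values was not tested. Without this female the SD between sisters was 0.43 for Nlrp14, 0.38 for Nlrp4b, 0.37 for Nlrp4e, 0.34 for Nlrp9a, 0.27 for Nlrp9b, 0.19 for Nlrp4a and 0.17 for Nlrp9c. Nlrp9c then exceeded 35.6% of its peers, whose median was 0.19, and Nlrp9b 67.2%, whereas Nlrp4b exceeded 96.0%, Nlrp14 95.1%, Nlrp9a 90.3%, Nlrp4e 76.9% and Nlrp4a 50.8%.

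Other sisters also stood apart. In the transgenic female of lane 3, oocyte A had 868 RPM of Nlrp4b and its lowest sister 363 RPM, and the ratio of the highest to the lowest sister was 2.39 for Nlrp4b, 2.11 for Nlrp4e, 2.07 for Nlrp14 and 2.05 for Nlrp9a. In the wild-type female of lane 2, Nlrp14 ran from 860 to 2199 RPM, and its lowest oocyte, C, was the one with the highest sum of cumulus markers (33.5 RPM). Whether these markers bear on the low Nlrp14 value was not tested. The females of lane 4 had ratios of 1.00 to 1.32 for the 7 genes, but over 2 oocytes each, which tends to lower such a ratio. The wild-type female of lane 1, with 3 oocytes, was more even than both for Nlrp4b (1.15) and Nlrp4e (1.02).

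**Figure D5:**
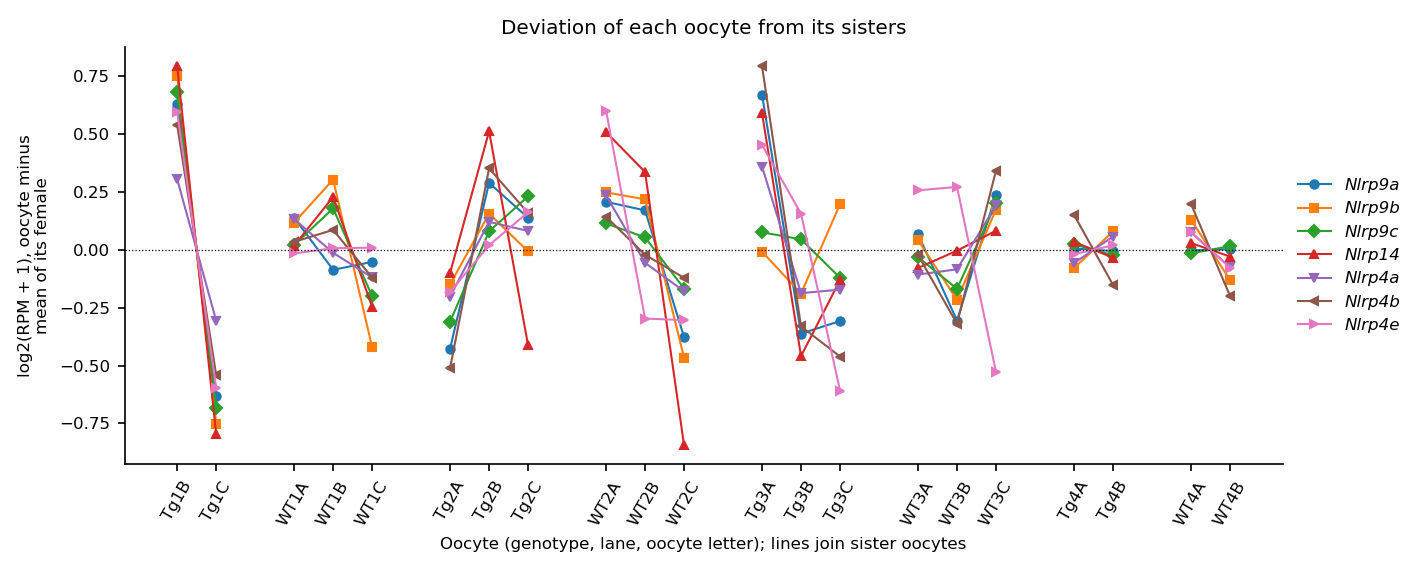
Deviation of each oocyte from the mean of its female in log2(RPM + 1), for the 7 genes, ordered by female. In 6 of 21 oocytes all 7 genes lie on one side of 0, among them both oocytes of the transgenic female of lane 1, whose deviations mirror each other because the pair defines its own mean.

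The 7 genes tended to be high and low in the same oocytes. All 21 pairs of genes had a Pearson's r above 0 over the 21 oocytes, from 0.20 to 0.88 with a median of 0.58, as a description over libraries that share females and lanes. The closest pair was Nlrp9a and Nlrp4b at 0.88, which lie far apart on chromosome 7 and shared no 50-base word. Nlrp9b and Nlrp4b were the least alike, at 0.20. After the mean of each female was subtracted, r ran from 0.41 to 0.92 with a median of 0.70, whereas the median within-female r of the 7 genes with all other tested genes was -0.035. Without the transgenic female of lane 1, r with no female mean subtracted ran from -0.014 to 0.85 with a median of 0.51 over 19 oocytes. The within-female r then ran from -0.015 to 0.90 with a median of 0.56. The reference of -0.035 covers all other tested genes, is not matched for level and was not recomputed without this female. In 6 of 21 oocytes all 7 genes were on the same side of the female's mean, 3 above and 3 below, and in 12 at least 6 were.

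The tested genes with the highest r to each gene over the 21 oocytes are given next, up to 3 for each and again as a description. Nlrp9a was followed most closely by Nlrp4b (0.88), Mtpap (0.86), a mitochondrial poly(A) polymerase, and the origin recognition gene Orc5 (0.84). Nlrp9b was most like Esco2 (0.95), a cohesin acetyltransferase, the p53 regulator Mdm4 (0.93) and Zfp955a (0.91). Nlrp9c was most like the checkpoint kinase gene Chek1 (0.90), Fbxw24 (0.89), an F-box gene, and Nae1 (0.88) of the NEDD8 pathway. Among the genes most like Nlrp14 were Haus3 (0.83) of the augmin complex and the sorting nexin Snx2 (0.82). Nlrp4a was most like the autophagy receptor gene Tax1bp1 (0.87), the splicing factor Sf3b1 (0.86) and the ubiquitin-activating enzyme Uba6 (0.86). Nlrp4b was most like Cd55 (0.90), a complement regulator, Nlrp9a (0.88) and Nme7 (0.87). Nlrp4e had the weakest likeness, to Atf2 (0.79), Brdt (0.78) and Ccdc6 (0.76). The top-ranked values were picked from all tested genes, for which the 95th percentile of r with a given member lay between 0.47 and 0.67. They rest on all 21 oocytes and were not recomputed without the transgenic female of lane 1.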

How the data were processed

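Oocyte cDNA was amplified by SMART-Seq v4 and sequenced from ThruPLEX libraries, per the labels' protocols. Trim Galore, FastQC, HISAT2, GRCm39 and mm39 are named in the submitters' processing notes. The counting tool, strand setting and handling of reads with several matches: not given in the sources. Deposited by the authors as RPKM, the values are log2 RPM without length division. Absence of reads is stored as 0.9 reads, from which whole reads were recovered (100% of 256342 values under 2000 reads were within 0.02 of one). Depth was 20441000 to 33341000 reads per oocyte and 22039000 for the control RNA. Coordinates are GRCm38: 99.7% of 25035 matched gene IDs overlapped their GENCODE M21 gene. Of the listed genes, 3 (Khdc3, Slc8b1 and Adgre1) were found by ID under older symbols.

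Members and lists were chosen with earlier results of these data known. Entries averaging 1 RPM or more were compared between 4 transgenic and 4 wild-type females on means of log2(RPM + 1), a scale that understates changes of low genes. The test was limma 3.58.1 (lmFit, eBayes with trend, two-sided, Benjamini-Hochberg over all entries, threshold 0.05) in R 4.3.3, checked on simulated data. By the labels, lanes pair the females (1 per genotype and lane), and deviations of lane mates correlated at -0.04, 0.084, 0.34 and 0.32 in lanes 1 to 4. For transgenic and wild-type females of different lanes the median was -0.055. The SEs and intervals given for each gene are from the fit without the lane block. All 7 members were named, with list genes and the 3 tested genes most like each member (predicted genes left out; 1 is not reported here). The planned protein comparison was not made. The alternatives are in the closing section.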

Additional observations from a re-analysis of the deposited data

Results flagged for a closer look

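Nlrp9c in oocyte C of the transgenic female of lane 1 was at 431 RPM, below the next lowest of the 10 transgenic oocytes at 957 RPM. The gap was 0.536 of the whole range of the group, past the critical value of 0.466 for 10 samples. Of 21 groups examined for the 7 genes (4 transgenic females, 4 wild-type females and 10 transgenic oocytes each) this was the 1 value past its limit, and chance gives about 1 in 20. Such limits assume independent values, whereas the 10 oocytes came from 4 females and the groups share oocytes across genes. Oocyte C was also the lowest of all 21 oocytes for Nlrp9a, Nlrp9b, Nlrp4a and Nlrp4e. Without it the log2 difference of Nlrp9c was 0.03 in place of -0.14.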

How the results depend on the processing

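None of the 7 genes was called under any of 22 alternatives (pseudocount, filter, scaling, lane block, single oocytes, medians, voom on recovered reads, each female left out, and oocyte B or C of the transgenic female of lane 1 left out, the last chosen after seeing the data). Over all entries the count of calls was 12 with single oocytes when female was a random effect and lane a replicate block, 2 with single oocytes as independent, 0 to 1 with a female left out (1 without the transgenic female of lane 1) and 0 otherwise; the cause was not tested. With the lane as replicate block alone the count was 0, as in the main comparison, and this block changed no call. The smallest adjusted p of any of the 7 genes under any alternative was 0.373. Nlrp14 (0.094 to 0.50) and Nlrp4a (0.11 to 0.27) kept a difference above 0 under all 22. Differences near 0 changed sign. Nlrp9a was 0.053 with equal medians, 0.044 with TMM factors, 0.023 with the female as random effect, 0.014 with the lane block added, 0.034 with independent oocytes, 0.046 with voom and 0.16 without oocyte C. Nlrp4e was 0.035 with equal medians, 0.026 with TMM, 0.0011 with independent oocytes, 0.033 with medians of the oocytes and 0.13 without oocyte C. Without oocyte C Nlrp9b was 0.055 and Nlrp9c 0.031, and without oocyte B Nlrp4b was -0.084. With 1 female left out, the ranges were 0.13 to 0.50 for Nlrp14, 0.13 to 0.23 for Nlrp4a, -0.0061 to 0.15 for Nlrp4b, -0.13 to 0.11 for Nlrp4e, -0.11 to 0.055 for Nlrp9a, -0.34 to 0.024 for Nlrp9b and -0.25 to 0.018 for Nlrp9c. The cause of these changes was not tested. Equal medians and TMM moved the median of all entries from -0.014 to 0.033 and 0.025. In the 100 bases before the start, 0 windows held TAATTG or TATAAA, in place of 2 and 1. All 7 genes were well above the detection floor, with at least 31.6 RPM in every oocyte, where 3 reads were at most 0.147 RPM. Whether depth affected their values was not tested.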
